A study of Rattus norvegicus with 12 samples.

Results

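The colony-stimulating factor genes and the genes of their receptors were followed in rat cells that had been cultured with human amniotic cells. The members were the ligand genes Csf1, Csf2 and Csf3 and the receptor genes Csf1r, Csf2ra, Csf2rb and Csf3r. They were found by symbol, each symbol had 1 entry, and together they make 7 of the 32623 genes listed. The groups were cells co-cultured with human amniotic epithelial cells (hAEC, libraries 11, 12, 3 and 4), cells co-cultured with human amniotic mesenchymal stromal cells (hAMSC, libraries 15, 16, 7 and 8) and cells with vehicle (libraries 19, 20, 17 and 18), 4 libraries each. All were primary cells prepared by density gradient from rats made cirrhotic by inhaled carbon tetrachloride and labelled as hepatic stellate cells, the fat-storing cells of the liver sinusoid. The human cells, 15000 viable ones, sat in Transwell inserts, porous cups that keep the 2 cell populations apart, for 24 h. The labels give neither whether vehicle wells held an empty insert nor from how many rats or cultures each group was drawn. The p-values below can thus speak only for the spread among these 12 libraries, part or all of which may be technical.

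Colony-stimulating factors are secreted proteins that keep myeloid cells alive, make them divide and set their state. CSF1, also called M-CSF, binds CSF1R, a receptor tyrosine kinase on which most tissue macrophages, those of the liver included, depend, and which interleukin 34 also binds. CSF2, also called GM-CSF, binds a receptor made of its own alpha chain, CSF2RA, and the common beta chain, CSF2RB, which the receptors for interleukin 3 and interleukin 5 share and which signals through JAK2 and STAT5. CSF3, also called G-CSF, binds CSF3R, the receptor that drives the making and release of neutrophils.

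Total counts ran from 27382724 to 34922211 per library. The first principal component of the 2000 most variable genes held 73.5% of their variance and divided the 12 libraries into a higher-numbered set (hAEC 11 and 12, hAMSC 15 and 16, vehicle 19 and 20) and a lower-numbered set (hAEC 3 and 4, hAMSC 7 and 8, vehicle 17 and 18). Each group had 2 libraries in each set, and the labels name no such sets. Markers of macrophages were abundant: 14 of 15 averaged at least 1 CPM (the count of a gene scaled to a common library total), with a list median of 559 CPM, and Cd68 was at 1615 to 1664 CPM in the higher-numbered and 1568 to 1663 CPM in the lower-numbered set. Of the 12 markers of stellate cells and myofibroblasts, the labelled cell type, 9 averaged at least 1 CPM, with a list median of 1.77 CPM. The most abundant were Hgf, a growth factor gene, at 52.5 to 68.3 CPM in the higher-numbered and 21.3 to 28.1 CPM in the lower-numbered set, and Reln, the reelin gene, at 6.63 to 15.3 and 54.8 to 94.8 CPM. Acta2, the actin of activated stellate cells, was at 1.40 to 2.96 CPM in the higher-numbered and 0.802 to 2.50 CPM in the lower-numbered set, and Lrat, the enzyme that stores vitamin A in resting stellate cells, did not exceed 0.368 CPM. In a mixed sample such as this, fewer cells of a type and less RNA per cell cannot be told apart. No gene lengths were used, so levels are compared for 1 gene between libraries and not between genes.

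The set of the libraries, not the co-culture, went with the large differences in this family. In the higher-numbered set the ligand genes Csf1, Csf2 and Csf3 and the receptor gene Csf2rb were lower, the receptor genes Csf3r and Csf1r were higher, and Csf2ra overlapped. For 6 of the 7 members all 6 libraries of one set lay above all 6 of the other, and 55.2% of the 13539 genes tested did the same (24.8% above and 30.4% below in the higher-numbered set). For 5 of the 7 members the sets did not overlap and differed at least 2-fold, 1 higher and 4 lower in the higher-numbered set. Over all genes tested, 17.3% met that criterion, 8.18% higher and 9.15% lower. The median gene differed by -0.05 on the log2 scale, and by 0.38 without regard to sign. The sets were read from these same data, so the difference between them is described and not tested.

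**Figure D1:**
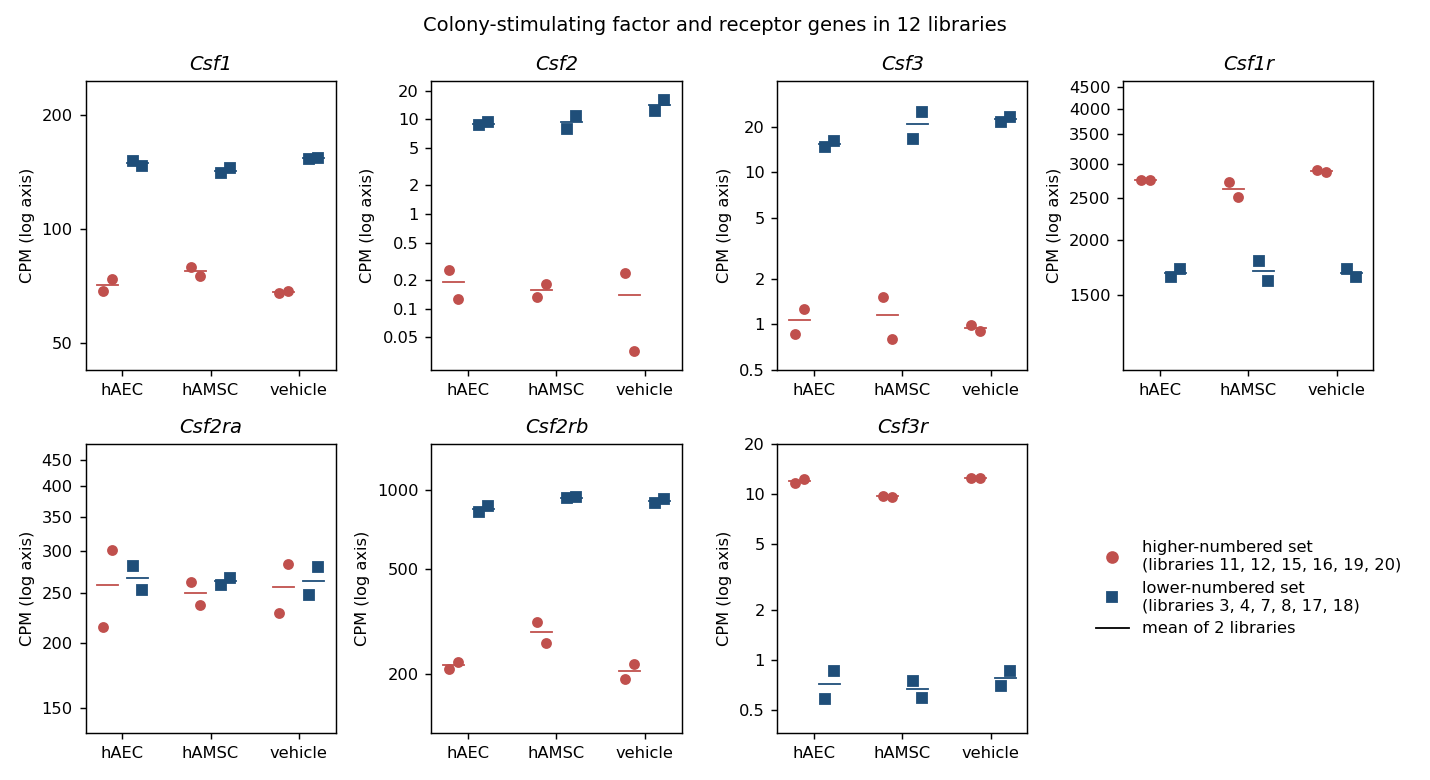
CPM of the 7 genes in each library on log axes, by group, with 1 point per library and a bar at the mean of 2 libraries. The higher-numbered set lies below the lower-numbered set in every group for Csf1, Csf2, Csf3 and Csf2rb and above it for Csf1r and Csf3r, while the sets overlap for Csf2ra.

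Csf2 showed the widest gap between the sets. The promoter of this gene is printed because the gene differed most between the sets, and because short elements of this kind are known from work on GM-CSF transcription in T cells. The sequence is from RefSeq, rat assembly GRCr8, chr10:38889724-38889843 on the minus strand, 5′ to 3′ along the gene, and covers positions -170 to -51 from the annotated start. Capitals mark, in order, the first letters of the cytokine-1 element, GAGATTC, of a Runx core TGTGGT and of a TATA box TATAA.

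Csf2 promoter: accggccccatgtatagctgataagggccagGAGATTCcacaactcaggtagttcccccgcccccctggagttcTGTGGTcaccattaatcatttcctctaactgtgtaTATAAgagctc

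Searched on both strands over the 250 bases before the start, GAGATTC was found in 2.55% of 27457 rat promoters, TGTGGT in 14.1% and TATAA in 24.1%. The first begins at position -139, the second at -96 and the third at -61. These are matches of letters, and no binding was measured.

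Csf2 had 0.257 and 0.126 CPM in hAEC libraries 11 and 12, 0.134 and 0.181 CPM in hAMSC libraries 15 and 16, and 0.240 and 0.0360 CPM in vehicle libraries 19 and 20. In the lower-numbered set it had 8.59 and 9.36 CPM in hAEC libraries 3 and 4, 7.82 and 10.9 CPM in hAMSC libraries 7 and 8, and 12.3 and 15.8 CPM in vehicle libraries 17 and 18. The groups overlapped in the higher-numbered set, while in the lower-numbered set both vehicle libraries lay above all 4 co-culture libraries. The gene rested on 29 counts in all 6 higher-numbered libraries together, against 1975 in the 6 lower-numbered ones. By these counts and the library totals it was 65.3-fold more abundant in the lower-numbered set, with an exact 95% interval of 45.3 to 97.8 that covers counting error only. The sets were read from these same data, so this interval is no test of the difference between them. In a fit of the higher-numbered set alone, Csf2 did not pass the expression filter. The log2 ratio of the higher-numbered over the lower-numbered set was -5.55 in hAEC, -5.89 in hAMSC and -6.66 in vehicle libraries. Of all genes tested, 0.281% lay at least as far apart between the sets.

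GM-CSF is made in quantity by activated T cells, natural killer cells and innate lymphoid cells, besides macrophages and stromal cells. Of their markers, the natural killer granule gene Nkg7 was at 0.503 to 1.16 CPM in the higher-numbered and 3.49 to 5.85 CPM in the lower-numbered set. The granzyme gene Gzmb was at 0 to 0.0601 CPM in the higher-numbered and 0.934 to 1.90 CPM in the lower-numbered set, and the natural killer receptor gene Ncr1 at 0.225 to 0.974 and 1.03 to 2.63 CPM. Another natural killer receptor gene, Klrb1a, was more abundant and overlapped between the sets, at 5.91 to 7.07 CPM in the higher-numbered and 4.52 to 7.97 CPM in the lower-numbered set. The T cell receptor component Cd3e did not move with them, at 0.309 to 0.871 CPM in the higher-numbered and 0.0573 to 0.501 CPM in the lower-numbered set. The summed level of all 13 lymphocyte markers was 1577 to 1670 CPM in the higher-numbered and 399 to 437 CPM in the lower-numbered set, of which Cd4, a gene that rat macrophages also express, made 1566 to 1660 and 380 to 424 CPM. The part of these cells in the Csf2 difference was not tested.

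Csf3 followed Csf2 at a smaller size. It had 0.868 and 1.26 CPM in hAEC libraries 11 and 12, 1.504 and 0.798 CPM in hAMSC libraries 15 and 16, and 0.996 and 0.900 CPM in vehicle libraries 19 and 20, each on 22 to 45 counts. The lower-numbered set had 14.6 and 16.2 CPM in hAEC libraries 3 and 4, 16.7 and 25.0 CPM in hAMSC libraries 7 and 8, and 21.4 and 23.3 CPM in vehicle libraries 17 and 18. The groups overlapped in the higher-numbered set, and in the lower-numbered set both hAEC libraries lay below all others. Of all genes tested, 21.7% had both hAEC libraries below vehicle in that set, and the share that also lay below hAMSC was not computed. The log2 ratio of the higher-numbered over the lower-numbered set was -4.21 over all groups, an 18.5-fold difference, and -3.86 in hAEC, -4.18 in hAMSC and -4.56 in vehicle libraries. Of all genes tested, 0.923% lay at least as far apart.

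Csf1, the ligand that macrophages need, was the steadiest of the 3 ligand genes. It had 68.6 and 73.9 CPM in hAEC libraries 11 and 12, 79.5 and 74.9 CPM in hAMSC libraries 15 and 16, and 67.7 and 68.4 CPM in vehicle libraries 19 and 20. Its levels in the lower-numbered set were 152 and 147 CPM in hAEC libraries 3 and 4, 140.5 and 145 CPM in hAMSC libraries 7 and 8, and 153 and 154 CPM in vehicle libraries 17 and 18. All 4 co-culture libraries lay above vehicle in the higher-numbered set, as for 20.1% of all genes tested with hAEC and 22% with hAMSC. They lay below vehicle in the lower-numbered one, as for 21.7% with hAEC and 25.1% with hAMSC. Between the sets Csf1 differed 2.06-fold (log2 -1.04), and 18.7% of all genes tested lay at least as far apart.

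The receptor for that ligand differed in the opposite direction. Csf1r had 2747 and 2748 CPM in hAEC libraries 11 and 12, 2717 and 2521 CPM in hAMSC libraries 15 and 16, and 2901 and 2868 CPM in vehicle libraries 19 and 20. The lower-numbered values were 1649.6 and 1722 CPM in hAEC libraries 3 and 4, 1792 and 1611 CPM in hAMSC libraries 7 and 8, and 1717 and 1646 CPM in vehicle libraries 17 and 18. Both co-cultures lay below vehicle in the higher-numbered set, as for 14.6% of all genes tested with hAEC and 14.9% with hAMSC, and the groups overlapped in the lower-numbered one. The sets differed 1.63-fold (log2 0.70), and 29.7% of all genes tested lay at least as far apart. The summed level of the 15 macrophage markers was 41430 to 43400 CPM in the higher-numbered and 20960 to 22660 CPM in the lower-numbered set. Gpnmb made 24080 to 26420 and 14400 to 15940 CPM of it, and Lyz2 8315 to 9668 and 1001 to 1210 CPM. The markers did not all move the same way. Cd68, Cd163 and Fcgr1a overlapped between the sets. Adgre1 was higher in the higher-numbered set (735 to 787 CPM, against 58.2 to 76.6 CPM). So, without overlap, were Gpnmb, Lyz2, Mrc1, C1qa, C1qb, C1qc, Vsig4 and Timd4, which with Adgre1 are most of the list. Clec4f, a lectin of liver macrophages, was lower there (725 to 897 CPM, against 900 to 1041 CPM). So were Cd14 (162 to 215.5 CPM, against 947 to 1079 CPM) and Marco (33.1 to 47.7 CPM, against 98.7 to 115.9 CPM). The part of macrophages in the Csf1r difference was not tested.

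The 2 chains of the GM-CSF receptor parted from each other. Csf2ra, the alpha chain, had 215 and 302 CPM in hAEC libraries 11 and 12, 262.5 and 237 CPM in hAMSC libraries 15 and 16, and 229 and 283 CPM in vehicle libraries 19 and 20. The levels were 281 and 253 CPM in hAEC libraries 3 and 4, 259 and 267 CPM in hAMSC libraries 7 and 8, and 247 and 280.4 CPM in vehicle libraries 17 and 18, all of the lower-numbered set. All groups and both sets overlapped, and the log2 ratio between the sets was -0.05, a distance that 91.6% of all genes tested reached.

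Csf2rb, the signalling beta chain, had 207 and 222 CPM in hAEC libraries 11 and 12, 316 and 260.5 CPM in hAMSC libraries 15 and 16, and 190.3 and 218 CPM in vehicle libraries 19 and 20. Its lower-numbered libraries had 823 and 867 CPM in hAEC libraries 3 and 4, 932 and 937 CPM in hAMSC libraries 7 and 8, and 889 and 927 CPM in vehicle libraries 17 and 18. In both sets the hAMSC libraries lay above those with hAEC and those with vehicle. Between the sets Csf2rb differed 3.8-fold (log2 -1.93), and 7.65% of all genes tested lay at least as far apart. The set with less Csf2 thus also had less of the beta chain and a like level of the alpha chain.

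Csf3r, the receptor of G-CSF, had the largest ratio in favour of the higher-numbered set. It had 11.6 and 12.4 CPM in hAEC libraries 11 and 12, 9.80 and 9.62 CPM in hAMSC libraries 15 and 16, and 12.6 CPM in both vehicle libraries 19 and 20. In the lower-numbered set it had 0.582 and 0.862 CPM in hAEC libraries 3 and 4, 0.745 and 0.594 CPM in hAMSC libraries 7 and 8, and 0.694 and 0.864 CPM in vehicle libraries 17 and 18, on 17 to 27 counts each. Vehicle lay above all 4 co-culture libraries in the higher-numbered set, and the groups overlapped in the lower-numbered one. In the higher-numbered set 14.6% of all genes tested lay below vehicle in this way with hAEC and 14.9% with hAMSC. The sets differed 15.8-fold (log2 3.98), in the direction opposite to Csf3, and 1.2% of all genes tested lay at least as far apart.

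Because CSF3R is best known from neutrophils, the 13 neutrophil markers were read beside it. Their summed level was 34.0 to 43.7 CPM in the higher-numbered and 24.9 to 37.4 CPM in the lower-numbered set, and 3 of the 13 averaged at least 1 CPM. The neutrophil collagenase Mmp8 was at 24.2 to 33.5 CPM in the higher-numbered and 0.274 to 0.598 CPM in the lower-numbered set. The granule protein Lcn2 went the other way, at 5.98 to 9.86 CPM in the higher-numbered and 22.2 to 33.7 CPM in the lower-numbered set. The genes of primary granules were at or near 0: Prtn3 was at 0 in all 12 libraries, Mpo did not exceed 0.0313 CPM and Elane did not exceed 0.0322 CPM. The calprotectin subunit S100a8 was at 0.324 to 1.41 CPM in the higher-numbered and 0.224 to 0.859 CPM in the lower-numbered set. The part of neutrophils in the Csf3r difference was not tested.

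Promoters from RefSeq are shown for Csf3r, the receptor gene with the largest difference between the sets, and for Csf2ra, the one with the smallest. PU.1 is a myeloid factor known to act on the promoters of several receptor genes of this family in human and mouse cells, and capitals mark the letters GAGGAA of its core. The Csf3r stretch is GRCr8 chr5:143583010-143583110 on the plus strand, positions -210 to -110, and the Csf2ra stretch is chr14:118148-118247 on the minus strand, positions -130 to -31.

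Csf3r promoter: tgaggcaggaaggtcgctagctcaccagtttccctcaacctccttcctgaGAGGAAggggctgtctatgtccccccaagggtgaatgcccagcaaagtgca

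Csf2ra promoter: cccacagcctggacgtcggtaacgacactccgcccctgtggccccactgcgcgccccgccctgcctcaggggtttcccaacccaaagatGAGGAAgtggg

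The letters begin at position -160 in Csf3r and at -41 in Csf2ra. On the opposite strand they were also found at -77 in Csf2 and at -229 and -95 in Csf1r, so all 4 members with a RefSeq promoter held them. Of all 27457 promoters, 23.2% did. The letters TGANTCA of an AP-1 site, held by 6.36% of promoters, were not in the 4 windows.

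The first question of the design was whether either human cell type changed the rat cells. Differences between groups were fitted over all genes with edgeR's quasi-likelihood test, with the library set as a term, and a gene was called at a Benjamini-Hochberg adjusted p under 0.05. With hAEC against vehicle, 0 of the 7 members passed, and 0% of all genes tested did. At an unadjusted p under 0.05 there were 759 genes, 5.61% of those tested, and 1 member. That member was Csf2, with a log2 difference of -0.51 (SE 0.23, 95% interval -1.0 to -0.02, adjusted p = 0.881), and with -0.30 without vehicle library 18. Csf3 had a log2 difference of -0.34 (SE 0.19, adjusted p = 0.92). The other 5 members differed by -0.08 to 0.01 on the log2 scale. For Csf1r, on many counts, the interval of -0.14 to 0.07 bounds the difference closely, and for Csf2rb it was -0.22 to 0.17. The median member differed by -0.04, and the median of all genes tested was -0.00. Another tool, DESeq2, called 2 of all genes and no member, and limma with voom called 0 of all genes and thus no member.

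With hAMSC against vehicle, 0 of the 7 members passed, and 0.236% of all genes did, 32 in number, 21 higher (0.155%) and 11 lower (0.0812%) with hAMSC. Limma voom also called 32 genes, but 14 higher and 18 lower. At an unadjusted p under 0.05 there were 3 members, and 9.68% of all genes tested. Csf2rb was 0.27 higher on the log2 scale with hAMSC (SE 0.09, 95% interval 0.07 to 0.46, edgeR adjusted p = 0.362). Csf3r was 0.34 lower, a log2 difference of -0.34 (SE 0.12, interval -0.60 to -0.08, adjusted p = 0.379). Csf2 had a log2 difference of -0.49 (SE 0.23, adjusted p = 0.516), nearly that found with hAEC, and both values rest on the same 4 vehicle libraries. Without vehicle library 18 it was -0.29, and without hAMSC library 7 it was -0.31. Csf1, Csf1r, Csf2ra and Csf3 differed by -0.06 to 0.03, with an interval for Csf1r of -0.16 to 0.04. The median member differed by -0.02, against -0.00 over all genes tested.

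Csf2rb was the member whose call depended on the tool. All hAMSC libraries lay above vehicle within both sets, which 4.11% of all genes tested did, and 19.4% did so within the lower-numbered set. DESeq2, in the same design, gave the same log2 difference of 0.27 with an adjusted p of 0.0358, while the other alternatives, leaving out single libraries and fitting each set alone included, gave 0.133 to 1. The size of the difference leaned on 1 library, falling to 0.17 without hAMSC library 15. DESeq2 called 157 of all genes in this comparison and edgeR 32.

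**Figure D2:**
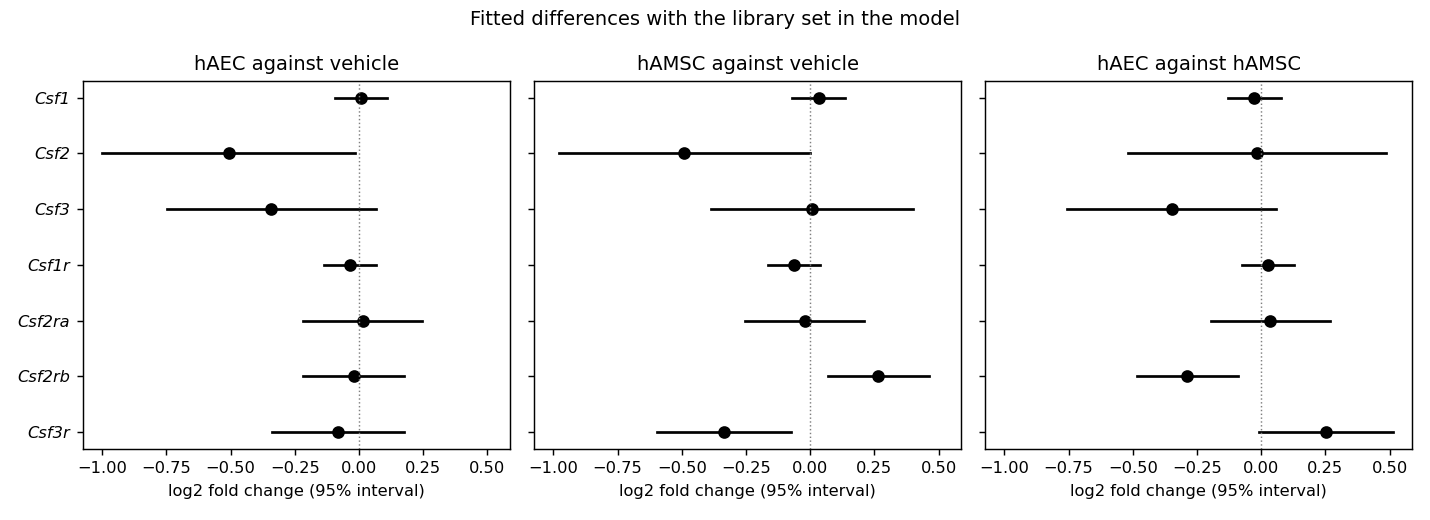
Fitted log2 fold changes of the 7 genes with 95% intervals (not adjusted for the number of genes), for each human cell type against vehicle and for hAEC against hAMSC, with the library set in the model. Csf1, Csf1r and Csf2ra lie close to 0 in all 3 comparisons, and Csf2 lies near -0.51 and -0.49 against vehicle with the widest intervals.

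The 2 human cell types were compared next. With hAEC against hAMSC, 0 of the 7 members passed, and 0.0222% of all genes did, 3 in number. At an unadjusted p under 0.05 there was 1 member, and 6.37% of all genes tested. Csf2rb had a log2 difference of -0.29 (SE 0.09, 95% interval -0.48 to -0.09, edgeR adjusted p = 0.513). Its hAEC libraries lay below its hAMSC libraries within both sets, as did those of 3.61% of all genes tested, and DESeq2 gave it an adjusted p of 0.0384. Csf3 differed by -0.35 (SE 0.19, adjusted p = 0.859) and Csf3r by 0.25 (SE 0.12, adjusted p = 0.786). Csf2, whose log2 difference from vehicle was about the same with either cell type, differed by -0.02 between them.

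The next comparison asked whether a co-culture did the same in both sets. For hAEC, 0 of the 7 members had a difference of effects past the threshold in edgeR, and 0% of all genes did, with 731 genes (5.4%) at an unadjusted p under 0.05 and none of the members among them. DESeq2 called 22 genes there and no member, and limma with voom called 0 of all genes and thus no member. For hAMSC, 0 of the 7 members passed, and 0.199% of all genes did, 27 in number. The log2 effect in the higher-numbered set minus that in the lower-numbered set was positive for 23 (0.17%) and negative for 4 (0.0295%). At an unadjusted p under 0.05 there were 3 members, Csf2rb, Csf1 and Csf1r, and 10% of all genes tested.

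Among the members, Csf2rb had the smallest adjusted p for a difference of hAMSC effects between the sets. Its log2 difference from vehicle was 0.48 (SE 0.08, interval 0.30 to 0.66) in the higher-numbered and 0.06 (SE 0.08) in the lower-numbered set, so that the effects differed by 0.42 (SE 0.12, edgeR adjusted p = 0.225). DESeq2 gave this difference an adjusted p of 0.0208, the fit with no expression filter gave 0.000197 and the fit without hAMSC library 16 gave 0.0184. These settings also called more of all genes, 102, 533 and 158, against 27 in the main fit. Limma voom gave Csf2rb an adjusted p of 0.312. Beside it, the summed level of 12 endothelial markers in the higher-numbered set was 487 to 556 CPM with hAMSC, 395 to 402 CPM with hAEC and 402 to 417 CPM with vehicle. In the lower-numbered set it was 660 to 818 CPM with hAMSC, 680 to 695 CPM with hAEC and 757 to 808 CPM with vehicle. The most abundant of the 12 in the higher-numbered set were Tie1 and Eng, and both overlapped between the sets. Tie1 was at 173 to 197 CPM in the higher-numbered and 155 to 182 CPM in the lower-numbered set, and Eng at 123 to 207 and 124 to 153 CPM. Vwf also overlapped, at 6.95 to 13.5 and 4.65 to 7.25 CPM, as did Kdr, Stab2 and Clec4g. Cdh5 was lower in the higher-numbered set, at 43.0 to 64.3 and 163 to 190 CPM. Lyve1 was lower there too, at 2.47 to 10.7 and 83.2 to 119 CPM, and so, without overlap, were Tek, Erg, Ptprb and Egfl7. The part of endothelial cells in the Csf2rb difference was not tested.

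Csf1 stood 0.16 above vehicle on the log2 scale with hAMSC in the higher-numbered set (SE 0.06, interval 0.05 to 0.28) and differed by -0.09 (SE 0.05) in the lower-numbered set. The difference of these effects was 0.26 (SE 0.08, edgeR adjusted p = 0.252). Csf1r, its receptor, ran the other way: -0.16 (SE 0.06) in the higher-numbered and 0.03 in the lower-numbered set, with a difference of -0.19 (SE 0.09, adjusted p = 0.483). For both genes the sizes were small beside the 2.06-fold and 1.63-fold difference between the sets.

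Csf2 and Csf3 were measured well only in the lower-numbered set. There Csf2 differed from vehicle by -0.63 (SE 0.23, interval -1.14 to -0.13) on the log2 scale with hAEC and by -0.57 (SE 0.23, interval -1.07 to -0.07) with hAMSC. Both co-cultures lay wholly below vehicle, as did 21.7% of all genes tested with hAEC and 25.1% with hAMSC. In the higher-numbered set, on 1 to 8 counts per library, the hAEC effect was 0.42 (SE 0.66, interval -1.02 to 1.86) and the hAMSC effect 0.14 (SE 0.70), so that a change of the size seen in the lower-numbered set was not detectable. The effects differed by 1.05 (SE 0.71, adjusted p = 0.943) with hAEC and by 0.71 (adjusted p = 0.795) with hAMSC. Without single libraries these differences ran from 0.29 (without vehicle library 20) to 2.92 (without vehicle library 19) with hAEC, and from -0.061 to 2.57 with hAMSC, at the same libraries. Csf3 differed from vehicle by -0.53 (SE 0.21, interval -0.99 to -0.07) with hAEC and by -0.09 with hAMSC in the lower-numbered set, and by 0.15 and 0.27 in the higher-numbered set. Csf3r with hAMSC was at -0.39 (SE 0.15) in the higher-numbered and -0.20 (SE 0.24) in the lower-numbered set. Csf2ra stayed within -0.05 to 0.03 in each co-culture and set.

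**Figure D3:**
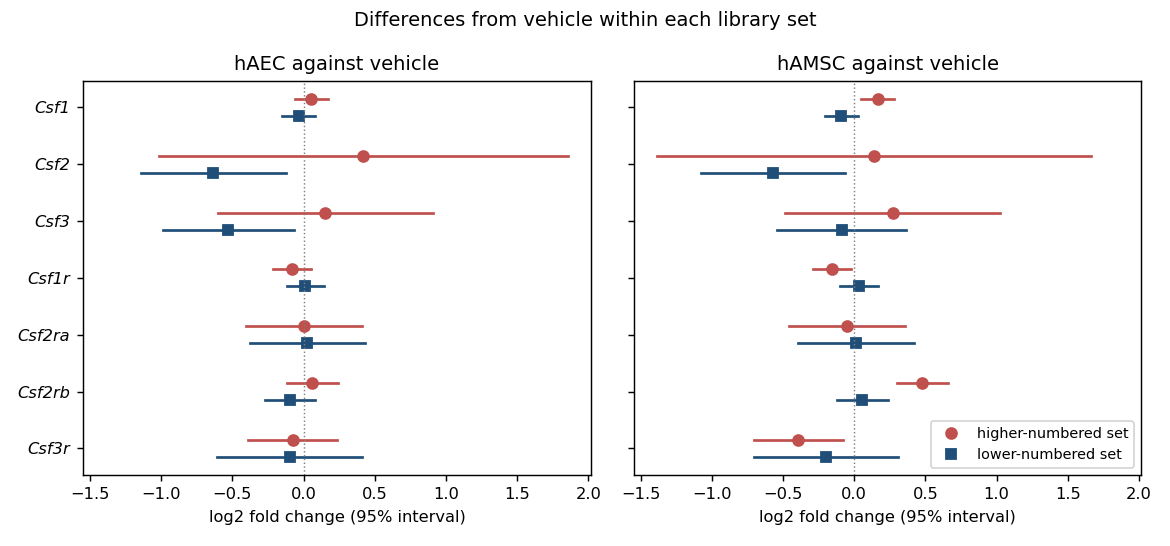
Log2 fold change from vehicle within each library set, for hAEC and hAMSC, with 95% intervals not adjusted for the number of genes, from the model in which the effect may differ between sets. The Csf2rb interval with hAMSC lies above 0 in the higher-numbered set (0.30 to 0.66), and the Csf2 intervals lie below 0 in the lower-numbered set with either cell type.

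Genes around the receptors were followed in lists of kindred cytokines, signal carriers, brakes, response genes and shedding proteases. Of the 16 kindred haematopoietic cytokine and receptor genes, 7 had counts enough to be tested and none passed in any comparison or difference of effects. Kit, the receptor for stem cell factor and a tyrosine kinase of the same family as CSF1R, was at 2.27 to 4.48 CPM in the higher-numbered and 33.4 to 50.1 CPM in the lower-numbered set. Its ligand Kitlg was at 0.617 to 1.73 CPM in the higher-numbered and 6.01 to 9.31 CPM in the lower-numbered set. The proteoglycan Sdc1, to which interleukin 34 also binds, was at 41.3 to 53.1 and 319 to 346 CPM. Trem2, a macrophage lipid receptor, showed the opposite order, with 266 to 302 CPM in the higher-numbered and 84.7 to 111 CPM in the lower-numbered set. Il34, the second ligand of CSF1R, did not exceed 0.315 CPM, and Il3, which signals through the same beta chain as GM-CSF, did not exceed 0.0997 CPM. Over the 7 tested, 2 were at least 2-fold higher without overlap and 3 lower in the higher-numbered set. Among all genes tested, 8.18% were higher and 9.15% lower by the same measure. The median log2 difference from vehicle was -0.02 with hAEC and -0.02 with hAMSC, with 3 of 7 above 0 in each.

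The 27 signal carriers pass the receptor signal on. Of these, 4 were at least 2-fold higher and 2 lower without overlap in the higher-numbered set, against 8.18% and 9.15% of all genes tested. Either way that made 6 of the 27, against 17.3% of all genes tested. The list median was 0.23 on the log2 scale, against -0.05 for all genes tested. The phosphoinositide 3-kinase catalytic subunits Pik3cd and Pik3cg were the farthest, at 238 to 265 CPM in the higher-numbered and 57.0 to 61.7 CPM in the lower-numbered set for Pik3cd. Pik3cg was at 175 to 204 and 45.4 to 52.9 CPM, and the kinase gene Fes at 99.3 to 112 and 34.7 to 42.6 CPM. None of the 27 passed in any comparison, and the median difference from vehicle was -0.01 with hAEC (9 of 27 above 0) and -0.02 with hAMSC (12 of 27 above 0). Among those with the smallest p, Pik3r1, the regulatory subunit of the same kinase, differed by 0.11 with hAMSC (edgeR adjusted p = 0.332).

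The 14 brakes are genes whose products damp receptor signals. Of these, 1 was at least 2-fold higher and 5 were lower without overlap in the higher-numbered set (list median -0.34). By that measure 8.18% of all genes tested were higher and 9.15% lower. Cish, a feedback inhibitor that STAT5 induces, was at 1.31 to 2.27 CPM in the higher-numbered and 26.6 to 38.6 CPM in the lower-numbered set. Socs3, the feedback inhibitor of STAT3 and of the CSF3 receptor, was at 2.23 to 6.19 and 23.5 to 31.6 CPM, and Socs2 at 6.01 to 9.51 and 20.7 to 23.6 CPM. These 3 inhibitors, named because they differed most between the sets, were lower in the set where Csf2 and Csf3 were lower. Other brakes went the other way, such as Cblb at 92.4 to 101 CPM in the higher-numbered and 40.2 to 49.6 CPM in the lower-numbered set. Inpp5d was at 396 to 469 and 213 to 233 CPM. The list median differed from vehicle by 0.01 with hAEC and 0.03 with hAMSC, 8 of 14 being above 0 in each.

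Socs3 was the brake whose hAMSC effect passed the test of a difference between sets. It had 6.19 and 5.73 CPM in hAMSC libraries 15 and 16, against 2.27 and 2.81 CPM in vehicle libraries 19 and 20. In the lower-numbered set it had 27.1 and 31.5 CPM in hAMSC libraries 7 and 8, against 27.0 and 31.6 CPM in vehicle libraries 17 and 18. The hAMSC libraries were thus higher than vehicle in the higher-numbered set and overlapped it in the lower-numbered one. The effects differed by 1.20 on the log2 scale (SE 0.20, edgeR adjusted p = 0.0192). The call was lost with limma voom (adjusted p = 0.226) and without hAMSC library 7 or 15 or vehicle library 18, 19 or 20 (0.0539 to 0.109).

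The 18 response genes tested are genes that CSF signals are known to turn on in myeloid cells. Of these, 4 were at least 2-fold higher and 10 lower without overlap in the higher-numbered set, against 8.18% and 9.15% of all genes tested. Cish is also among the brakes and is counted as lower in both lists. The list median was -1.10 on the log2 scale. Ccl17, a chemokine that GM-CSF induces, was at 0.240 to 0.540 CPM in the higher-numbered and 5.20 to 9.10 CPM in the lower-numbered set. The transcription factor Egr2 was at 37.0 to 45.5 and 199 to 221 CPM. Plau, the urokinase gene, ran the other way, at 571 to 638 CPM in the higher-numbered and 151 to 179 CPM in the lower-numbered set. The list median differed from vehicle by -0.01 with hAEC (8 of 18 above 0) and by 0.02 with hAMSC (9 of 18).

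Myc, a growth regulator, was the response gene that passed, again in the hAMSC effect by set. It had 37.2 and 33.9 CPM in hAMSC libraries 15 and 16, against 24.6 and 26.1 CPM in vehicle libraries 19 and 20. In the lower-numbered set it had 121.5 and 137 CPM in hAMSC libraries 7 and 8, against 135 and 142.5 CPM in vehicle libraries 17 and 18. It was higher with hAMSC in the higher-numbered set and overlapped vehicle in the lower-numbered one. The effects differed by 0.56 (SE 0.09, edgeR adjusted p = 0.0198), and the call was lost with limma voom (adjusted p = 0.119) and without hAMSC library 7 or 15 or any 1 of the 4 vehicle libraries (0.0551 to 0.119). The cyclin genes Ccnd1 and Ccnd2 were 0.36 and 0.40 higher on the log2 scale with hAMSC than with vehicle but missed the threshold (edgeR adjusted p of 0.11 and 0.0807).

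The last list held 8 genes of the proteases that release CSF1 and CSF1R from the cell surface and of their regulators. Adam17, the main sheddase of both, was at 266 to 293 CPM in the higher-numbered and 424 to 481 CPM in the lower-numbered set. Rhbdf2, which carries ADAM17 to the surface, was at 71.7 to 87.4 and 223 to 257 CPM, and the ADAM17 inhibitor gene Timp3 at 2.09 to 4.35 and 1.10 to 1.501 CPM. In the higher-numbered set 1 gene was at least 2-fold higher and 1 lower without overlap, against 8.18% and 9.15% of all genes tested. None of the 8 passed in any comparison. The list median differed from vehicle by -0.03 with hAEC (2 of 8 above 0) and by -0.01 with hAMSC (3 of 8).

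**Figure D4:**
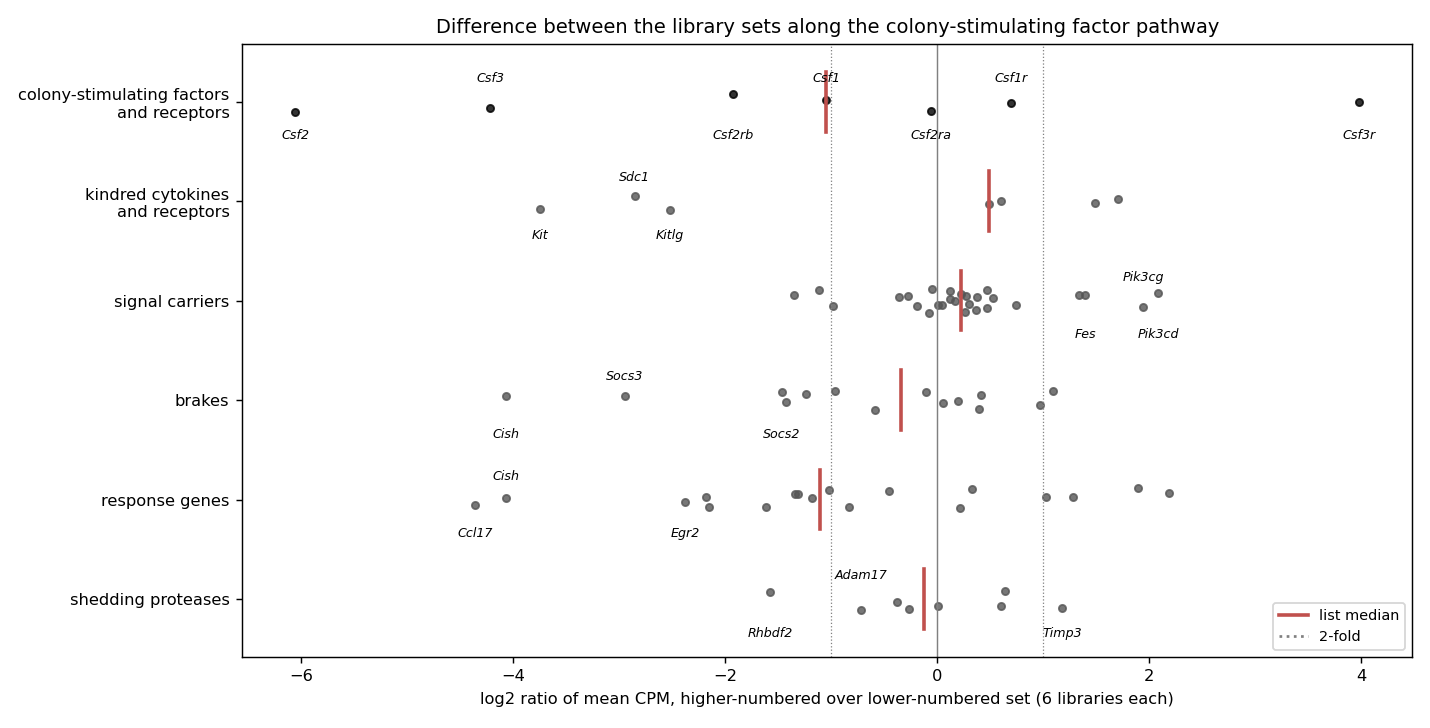
Log2 ratio of mean CPM in the higher-numbered over the lower-numbered set for each tested gene of 6 lists, with the list median as a red bar and dotted lines at a 2-fold difference. The 7 members reach from -6.05 (Csf2) to 3.98 (Csf3r), farther in both directions than any gene of the other 5 lists shown, and the response genes have a median of -1.10.

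The genes whose pattern over the 12 libraries was most like that of each member were found by the root mean square difference of centred log2 CPM. For every member but Csf2ra the sets dominate that pattern, so likeness is then mainly likeness in the set difference. For Csf1 these were Ldha, Psme2 and Klf6 (0.05 each) and for Csf1r Fuca1, Ap3b1 and Inpp5k (0.04 each). For Csf2 they were Nid2 (0.43), Ch25h (0.52) and Ccl12 (0.61), and for Csf3 Hbegf (0.24), Ccl7 (0.29) and Rassf4 (0.29). For Csf2rb they were Sod2 (0.08), Cdh5 (0.10) and Gda (0.11), of which Cdh5, the endothelial cadherin, is also among the endothelial markers. For Csf3r they were Slc9a9 (0.14), Golm1 (0.16) and Blnk (0.20), and for Csf2ra Tmem259 (0.06), Akap17a (0.07) and Raver1 (0.07).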

How the data were processed

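Polyadenylated RNA of 12 libraries was read as the expected counts per gene that the authors deposited. The tools named per the submitters' processing notes are STAR, RSEM, Trim Galore, FastQC and limma, and the builds Rnor_6.0 and rn6; for their versions, their roles and the strand setting, the sources used here give nothing. The values, as whole numbers after rounding, were tested in R 4.3.3 with edgeR 4.0.16 (filterByExpr, which kept 13539 genes and all 7 members, TMM factors 0.973 to 1.03, robust quasi-likelihood test, Benjamini-Hochberg adjustment over all genes), with group and library set as terms. The set was read from the first principal component of the data and is named by no label. No pair of libraries within a group was a duplicate, and pairs across groups were not compared for this. The biological coefficient of variation fell to 9.91% with the set in the model, against 38.9% with the group alone. Alternatives were run with DESeq2 1.42.0, limma 3.58.1 (voom), other scaling and filters, each set alone and each library left out. The members, the lists, the tests and the rule for naming genes (those past the threshold, the 3 with the smallest p against vehicle and the 3 farthest between sets per list, and the 3 nearest patterns per member, given in part) were chosen with earlier results of these data known. Mcl1 of the response list was not analysed here. The script was tested on simulated data. Promoters are from RefSeq GRCr8, a different build from that of the files, and 4 of 7 members matched.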

Additional observations from a re-analysis of the deposited data

Results flagged for a closer look

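The co-culture effect on Csf1 pointed in opposite directions in the 2 library sets, every co-culture library lying above vehicle in the higher-numbered set and below it in the lower-numbered one. The effects differed by 0.090 on the log2 scale for hAEC (edgeR adjusted p = 0.957) and by 0.26 for hAMSC (edgeR adjusted p = 0.252), so neither difference passed the test. The separation of both libraries was shared by 20.1% of all genes tested in the higher-numbered set and 21.7% in the lower-numbered set for hAEC, and by 22% and 25.1% for hAMSC. These shares are for 1 co-culture in 1 set. The share of genes with opposite directions in the sets, or with both co-cultures alike, was not computed.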

How the results depend on the processing

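Of 711 member values under other settings, 5 passed the threshold, all of Csf2rb. Signs changed in 14 values, and in 36 of the 420 that leave out a library, none of them past the threshold; the cause was not tested. With limma voom, Csf3 with hAMSC was -0.10. With the group alone, Csf1 was -0.0059 with hAEC and -0.0049 with hAMSC, and Csf3 with hAMSC -0.067. With the lower-numbered set alone, hAEC gave Csf1 -0.029 and Csf1r 0.017, hAMSC gave Csf1 -0.083, Csf1r 0.041, Csf2ra 0.019 and Csf3 -0.078, and hAEC against hAMSC gave Csf1 0.054 and Csf1r -0.024. With the higher-numbered set alone, hAEC gave Csf2rb 0.060 and Csf3 0.15.

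Without single libraries, hAEC effects ran from -0.014 to 0.037 (Csf1), -0.083 to 0.10 (Csf2ra) and -0.087 to 0.019 (Csf2rb), hAMSC effects from -0.0073 to 0.062 (Csf1), -0.067 to 0.042 (Csf2ra) and -0.17 to 0.16 (Csf3), and hAEC against hAMSC from -0.054 to 0.016 (Csf1), -0.011 to 0.082 (Csf1r), -0.20 to 0.18 (Csf2) and -0.062 to 0.12 (Csf2ra). The differences of effects ran from -0.29 to 0.20 (Csf2ra) and -0.24 to 0.35 (Csf3r) with hAEC, and from -0.061 to 2.57 (Csf2), -0.20 to 0.088 (Csf2ra) and -0.18 to 0.73 (Csf3) with hAMSC. Values that kept their sign but moved by over 1.5 times included Csf2 against vehicle (-0.60 to -0.30 with hAEC, -0.67 to -0.29 with hAMSC), Csf3 with hAEC (-0.45 to -0.22 against vehicle, -0.49 to -0.17 against hAMSC), Csf2rb (0.17 to 0.31 for hAMSC against vehicle, -0.33 to -0.19 for hAEC against hAMSC, 0.28 to 0.55 for the hAMSC effect by set) and the Csf2 difference of hAEC effects (0.29 to 2.92).

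The numbers of genes called moved as follows. With no expression filter, 52 genes were called for hAMSC against vehicle, 26 for hAEC against hAMSC, 309 for the hAEC and 533 for the hAMSC effect by set. DESeq2 called 2 for hAEC against vehicle, 157 for hAMSC against vehicle, 79 for hAEC against hAMSC, 22 for the hAEC and 102 for the hAMSC effect by set. Limma voom called 4 for the hAMSC effect by set. The group alone called 0 for hAMSC against vehicle and 0 for hAEC against hAMSC. The 2 groups alone called 10 for hAEC and 9 for hAMSC against vehicle. The lower-numbered set alone called 1 for hAEC, 86 for hAMSC and 1 for hAEC against hAMSC, and the higher-numbered set alone 6, 94 and 58. For hAEC against hAMSC, library size alone gave 1 call up and 2 down and limma voom 2 up and 1 down, against 0 up and 3 down. For hAMSC against vehicle, voom gave 14 up and 18 down, against 21 up and 11 down. Without single libraries, calls ran from 8 (without vehicle library 18) to 153 (without hAMSC library 15) for hAMSC against vehicle, 0 to 50 (without hAMSC library 7) for hAEC against hAMSC, 0 to 5 for the hAEC effect by set, and 0 (without vehicle library 19) to 158 (without hAMSC library 16) for the hAMSC effect by set. For hAEC against vehicle they were 0 in all 12.

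Socs3 and Myc were followed through the same settings after the data were seen, and their difference of effects kept its sign, at 1.06 to 1.35 and 0.48 to 0.63 without single libraries. No paired analysis was possible because the groups share no replicate numbers. Csf2 in the higher-numbered set and Csf3r in the lower-numbered set rested on few counts, which limits what could be detected there. All members entered the fit, so no test for members below the filter was needed.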
